A study of Rattus norvegicus with 8 samples.

Results

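The hepatic stellate cell stores vitamin A in resting liver and turns into a contractile, matrix-producing cell after injury. The genes described here are 40 markers of that cell and genes of the collagen matrix it makes, cross-links and degrades. They were listed by name, and a gene was measured where a probe set (the group of probes that reads a transcript) was annotated to its symbol alone. Where a gene had several, the brightest on average stood for it. Of the 40 genes, 36 had such a probe set, out of 18166 genes on the array in all. Acta2, Col6a1, Lamb1 and Thbs1 had no such probe set and are not analysed here. A mean log2 level of at least 5 was asked of a gene before testing, which left 27 of the 36, within 8690 tested genes. The 9 below that minimum were Col4a2, Col5a2, Mmp2, Mmp9, Loxl1, Des, Lum, Spp1 and Postn.

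Livers came from male Sprague-Dawley rats kept on chronic ethanol or on a pair-fed carbohydrate diet, either left untreated or injected with AM21. AM21 is an antisense oligonucleotide with locked nucleic acid bases against miR-21, given into the peritoneum at 7.5 mg/kg in saline 72 h ahead of the operation and again straight after it. Tissue was taken at 70% partial hepatectomy (PHx, 0 h) and 24 h later, from the same animals by their identifiers. Each diet and treatment is therefore 1 pool of RNA measured at both times, of 4 untreated or 3 AM21 animals, and each of the 8 groups is 1 array. The AM21 pools also differ from the untreated pools in animal number and in their range of identifiers, so AM21 and cohort cannot be told apart. Ages are not given in the labels. There was no sham-operated group, so PHx cannot be told apart from surgery or elapsed time. No array carried an inactive control oligonucleotide.

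Background on how these genes work frames the results. Quiescent stellate cells esterify retinol through Lrat and secrete reelin (Reln). On activation they gain smooth muscle proteins such as transgelin (Tagln), more platelet-derived growth factor receptor beta (Pdgfrb) and the inhibitor Timp1, and lay down fibrillar collagens I and III. Collagen IV and laminins form basement membrane, lysyl oxidases cross-link collagen, and metalloproteinases such as Mmp14 and Mmp2 cut it while the Timp proteins hold them back. In whole liver, fewer cells of a type and less RNA per cell cannot be told apart, and Vim, Timp1, Col4a1, Mmp14 and Fn1 are also made by other liver cells.

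The sequence that AM21 is directed against is the mature miR-21, shown because it defines the treatment. It is encoded at chr10:71902653-71902674 on the minus strand of GRCr8 (RefSeq), and the capitals mark its seed, bases 2 to 8.
rno-miR-21-5p: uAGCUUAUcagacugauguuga

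Promoter windows of 250 bases before to 50 bases after the transcript start were found in the RefSeq table (GRCr8) for 25 of the 40 genes. The Timp1 window is shown because Timp1 had the largest change with PHx among the tested members. It lies at chrX:3771073-3771372 on the minus strand, and the capitals mark a match to GGGCGG, the core of an Sp1 site, on the opposite strand (positions -142 to -137) and a match to TGAGTAA, a variant of the AP-1 motif (positions -108 to -102). The Col4a1 window is shown because its capitals, 176 bases, lie also in the window of Col4a2 on the other strand. The Col4a1 window lies at chr16:84885347-84885646 on the plus strand, and the annotated starts of these divergent genes are 77 bases apart.
Timp1: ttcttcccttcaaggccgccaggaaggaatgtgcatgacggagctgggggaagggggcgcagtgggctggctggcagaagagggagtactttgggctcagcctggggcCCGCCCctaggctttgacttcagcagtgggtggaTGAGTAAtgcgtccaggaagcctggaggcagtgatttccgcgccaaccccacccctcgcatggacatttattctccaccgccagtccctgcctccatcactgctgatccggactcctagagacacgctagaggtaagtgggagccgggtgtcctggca
Col4a1: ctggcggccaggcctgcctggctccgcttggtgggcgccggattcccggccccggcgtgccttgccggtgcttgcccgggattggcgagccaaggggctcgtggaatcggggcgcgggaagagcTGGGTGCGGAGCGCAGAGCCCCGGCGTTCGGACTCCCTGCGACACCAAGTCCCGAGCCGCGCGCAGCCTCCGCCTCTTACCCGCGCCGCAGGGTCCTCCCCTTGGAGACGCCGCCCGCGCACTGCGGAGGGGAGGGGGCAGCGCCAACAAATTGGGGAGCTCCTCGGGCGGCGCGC

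Motifs were searched on both strands, and a match describes letters, not a bound site. GGGCGG occurred in 13 of the 25 windows and in 33.1% of 33465 windows of the same length. TGANTCA, the AP-1 consensus, occurred in 2 (Col6a1 and Pdgfra) against 7.33% of all windows, and TGAGTAA in Timp1 alone against 2.90%. TTCNNNGAA, a STAT motif, occurred in Thbs1 alone (8.87% of all windows), and TATAAA in Col1a2, Vim, Spp1 and Postn (14.2%). CCAAT occurred in 8 windows against 37.5%. GTCTAGAC, a SMAD palindrome (0.197% of all windows), and the CArG box (1.64%) were found in none of the 25. Tagln, Lox and Col14a1 were among the genes with no window, so they were not searched. The motifs were chosen after the expression values had been seen.

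Values are the authors' log2 levels, and a difference of 1 is a doubling. RMA, the method behind them, gives no detection call, so levels under 5 are not shown to be above background. The arrays had medians from 4.11 to 4.23. The 11 hepatocyte markers measured had median levels between 11.32 and 11.46 on every array. Levels are compared within a gene only, since probe sets differ in how brightly they read.

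**Figure D1:**
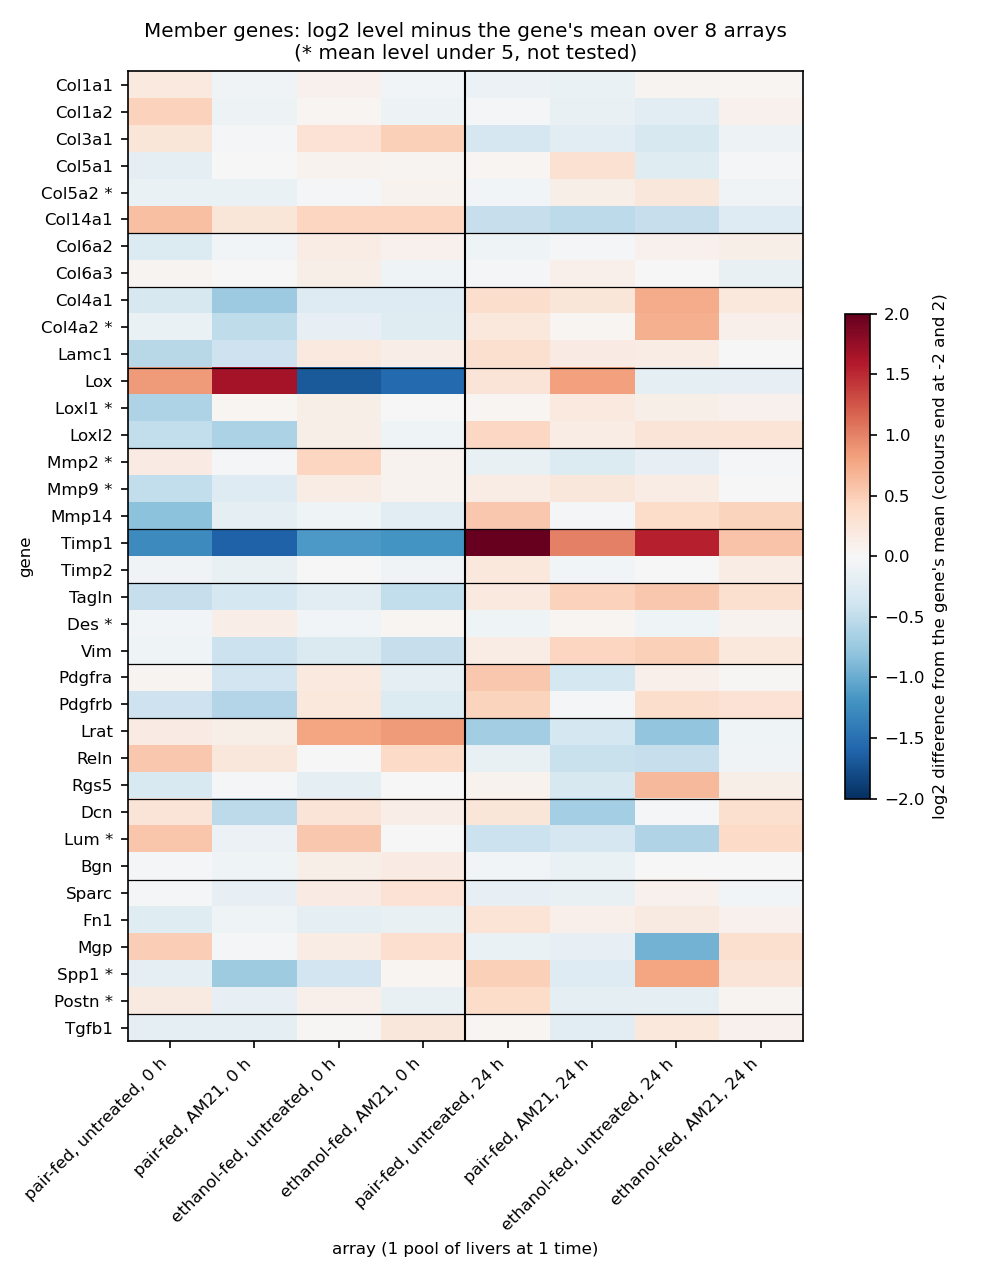
Log2 level of each of the 36 measured genes on each of the 8 arrays, as the difference from the gene's own mean (colour), with genes grouped by role and the 0 h arrays on the left. Timp1 is low on all 4 arrays at 0 h and high on all 4 at 24 h, and Lox is low on the ethanol-fed arrays at 0 h.

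The first comparison was PHx, 24 h minus 0 h within each of the 4 pools. Timp1, which inhibits metalloproteinases, the contractile protein gene Tagln, the intermediate filament gene Vim and the basement membrane collagen Col4a1 rose. Lrat and Reln, markers of the quiescent cell, and the collagens Col14a1 and Col3a1 fell. Col1a1 and Col1a2, the chains of collagen I, did not pass the test. In all, 8 of the 27 tested members rose, Col4a1 among them, where 15.3% of all tested genes did, and 4 fell, where 12.8% did. Col4a1 reached the level minimum only through its 24 h arrays, so its place among the 8 supports nothing. The median difference was 0.06 over the members and 0.01 over all tested genes. A change in the same direction in all 4 pools was seen in 15 of the 27 members, against 49% of all tested genes.

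Of the metalloproteinase inhibitors, Timp1 (probe set 17875665) had levels at 0 h of 5.77 in pair-fed untreated, 5.44 in pair-fed AM21, 5.91 in ethanol-fed untreated and 5.85 in ethanol-fed AM21 liver. At 24 h, in the same order, its levels were 9.13, 8.06, 8.60 and 7.62. Every 24 h array was above every 0 h array. Timp1 rose by 2.61 ± 0.23 (SE, 4 pools), or 6.12-fold, with a limma adjusted p of 0.00158. Timp2, which takes part in activating pro-Mmp2, lay between 6.30 and 6.65 on the 8 arrays, with a difference of 0.15 ± 0.09 that did not pass (95% interval -0.06 to 0.36).

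Of the proteases, Mmp14, the membrane-bound collagenase, had levels of 7.47, 8.09, 8.20 and 8.07 at 0 h and 8.83, 8.25, 8.66 and 8.74 at 24 h, in the same order. All 4 arrays at 24 h were above the 4 at 0 h, but the rise in single pools ran from 0.16 in pair-fed AM21 to 1.36 in pair-fed untreated liver (fitted 0.66 ± 0.19, adjusted p = 0.0412). The gelatinases Mmp2 and Mmp9 had mean levels of 4.88 and 3.89 and were not tested. Mmp2 was lower at 24 h in every pool, by 0.09 to 0.58.

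**Figure D2:**
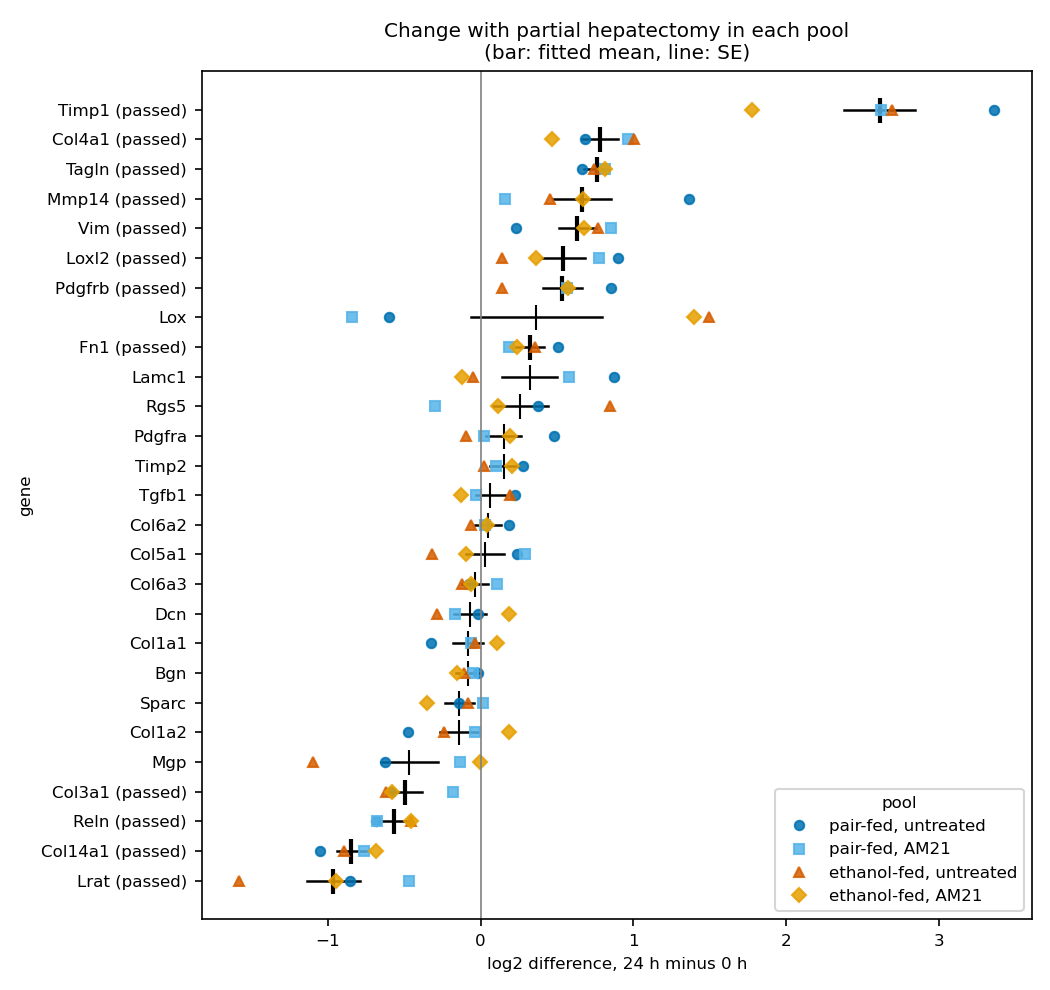
Log2 difference of 24 h minus 0 h for each of the 27 tested genes (rows), with a symbol for each of the 4 pools, a bar at the fitted mean and a line for its SE. Timp1 lies furthest to the right, between 1.78 and 3.36, and the Lox pools lie on both sides of 0.

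Among markers of activation, Tagln had levels between 6.15 and 6.43 at 0 h and between 6.84 and 7.18 at 24 h. Its 4 pools changed by 0.66, 0.82, 0.74 and 0.81, the narrowest spread among the genes that rose (fitted 0.76 ± 0.08, adjusted p = 0.00199). Other smooth muscle genes, Actg2, Myl9, Tpm1, Tpm2 and Myh11, were named after their values had been seen. Their differences lay between -0.40 (Myh11) and 0.23 (Tpm1), and none passed. Vim, vimentin, rose by 0.63 ± 0.12 (adjusted p = 0.0115), from levels between 7.71 and 8.09 to levels between 8.32 and 8.65. Pdgfrb, the receptor through which stellate cells are driven to divide, had 0 h levels of 6.08, 5.91, 6.70 and 6.22 and 24 h levels of 6.93, 6.48, 6.84 and 6.79. The times overlapped between pools, while each pool was higher at 24 h (0.53 ± 0.13, adjusted p = 0.0231). Pdgfra, the receptor of fibroblasts and of stellate cells, had a difference of 0.15 ± 0.12 and did not pass. Des, desmin, a stellate marker in the rat, was under the level minimum on every array, at 4.55 to 4.78.

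Of 3 tested markers of quiescent stellate cells or of pericytes, 2 fell, where 12.8% of all tested genes did. Lrat, the enzyme that forms retinyl esters, had levels of 7.27, 7.22, 7.90 and 7.96 at 0 h. Its 24 h levels were 6.41, 6.75, 6.32 and 7.01, and the times did not overlap. Lrat fell by 0.96 ± 0.17 (adjusted p = 0.00922), and the falls of the single pools ran from 0.47 in pair-fed AM21 to 1.58 in ethanol-fed untreated liver. Reln had levels from 6.34 to 6.88 at 0 h and from 5.88 to 6.28 at 24 h, and fell by 0.57 ± 0.09 (adjusted p = 0.00598). Rgs5, a pericyte marker that regulates G protein signalling, changed by 0.38, -0.30, 0.85 and 0.11 in the 4 pools and did not pass (adjusted p = 0.324).

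Of the 6 fibrillar and associated collagens, 5 were tested, 2 fell and none rose, where 12.8% of all tested genes fell and 15.3% rose. Col14a1, a collagen that sits on the surface of collagen I fibrils, had levels of 7.03, 6.68, 6.87 and 6.87 at 0 h and 5.98, 5.92, 5.98 and 6.19 at 24 h. It was lower on all 4 arrays at 24 h and fell by 0.85 ± 0.09 (1.80-fold, adjusted p = 0.00214). Col3a1, collagen III, fell by 0.49 ± 0.11 (adjusted p = 0.0163), from levels between 7.01 and 7.51 to levels between 6.69 and 6.93. Col1a1 had levels from 5.36 to 5.64 at 0 h and from 5.30 to 5.49 at 24 h, and its difference of -0.08 ± 0.10 has a 95% interval of -0.32 to 0.16. Col1a2 had a difference of -0.14 ± 0.12, with an interval of -0.43 to 0.15. Col5a1, a chain of the collagen V that nucleates fibrils, had a difference of 0.03 ± 0.12. Its second probe set lay at 4.72 to 4.94 on the 8 arrays. Of collagen VI, which forms beaded filaments around cells, Col6a2 and Col6a3 had differences of 0.05 ± 0.09 and -0.04 ± 0.09.

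Of the 3 basement membrane genes with a probe set, 2 were tested and 1, Col4a1, rose, where 15.3% of all tested genes did. Col4a1 had levels of 5.01, 4.61, 5.07 and 5.07 at 0 h and 5.69, 5.58, 6.08 and 5.53 at 24 h, and the times did not overlap. It rose by 0.78 ± 0.12 (adjusted p = 0.00493). Col4a1 reached the level minimum through its 24 h arrays (mean 5.72, against 4.94 at 0 h), so its presence among the tested genes supports nothing and the size of its rise is uncertain. With no level minimum its adjusted p was 0.0101. Col4a2, the divergent neighbour whose window overlaps the one printed above, had a mean of 4.81 and was not tested with the rest. Its 4 pools changed by 0.34, 0.54, 0.88 and 0.35, and in a fit with no level minimum it rose by 0.53 ± 0.13 (adjusted p = 0.0409). Lamc1, the laminin gamma 1 chain, had changes of 0.87 and 0.58 with pair-feeding, against -0.05 and -0.12 with ethanol, and did not pass (adjusted p = 0.230).

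Of the cross-linking enzymes, Loxl2 rose by 0.54 ± 0.14 (adjusted p = 0.0322), with pair-fed changes of 0.90 and 0.77 and ethanol-fed changes of 0.14 and 0.36. Its 0 h level in pair-fed AM21 liver was 4.88, under the minimum. Loxl1 had a mean level of 4.78 and was not tested. Lox moved in opposite directions in the diets and is described below. Among proteoglycans and glycoproteins, Fn1, the gene of fibronectin, which hepatocytes also secrete, rose by 0.32 ± 0.09 (adjusted p = 0.0415), from levels of 11.21 to 11.36 to levels of 11.54 to 11.72. The other tested genes of those groups, Dcn, Bgn, Sparc and Mgp, did not pass. Mgp, an inhibitor of calcification, had the widest spread of them, with changes of -0.63, -0.14, -1.10 and -0.01. Tgfb1, the profibrotic cytokine, had a difference of 0.06 ± 0.10, with an interval of -0.17 to 0.30. Spp1, osteopontin, was under the level minimum (mean 4.53) and was higher at 24 h in every pool, by 0.22 to 1.18. Lum, lumican, and Postn, periostin, had mean levels of 2.98 and 3.08 and were not tested.

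The calls on Timp1, Tagln, Vim, Col4a1, Col14a1, Lrat and Reln held without any single pool, and those on Col3a1, Mmp14, Loxl2, Pdgfrb and Fn1 did not. That on Col4a1 is a description, since its 24 h arrays brought it to the level minimum. The number of members called, 12 with all pools, was 7 without the pair-fed untreated pool, 7 without the ethanol-fed AM21 pool and 9 without either of the others. Calls over all tested genes went from 2443 to between 1466 and 1705 in the same fits. The differences ran from -0.59 to -0.45 for Col3a1, 0.43 to 0.83 for Mmp14, 0.42 to 0.68 for Loxl2, 0.43 to 0.67 for Pdgfrb and 0.26 to 0.37 for Fn1, so that Mmp14 without the pair-fed untreated pool (0.43 against 0.66) was the value that moved most. Without the pair-fed untreated pool the adjusted p was 0.0554 for Col3a1, 0.0705 for Mmp14, 0.0964 for Loxl2, 0.0687 for Pdgfrb and 0.104 for Fn1. Without the ethanol-fed AM21 pool these were 0.0674, 0.108, 0.0648, 0.0785 and 0.101. Without the ethanol-fed untreated pool Col3a1 (0.0681), Mmp14 (0.0769) and Fn1 (0.137) were lost, and without the pair-fed AM21 pool Loxl2 (0.108), Pdgfrb (0.0733) and Fn1 (0.0614).

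Other genes of the same pathways moved as follows with PHx, where 15.3% of all tested genes rose and 12.8% fell. Of 12 tested genes of collagen folding and maturation, 4 rose and 1 fell, led by Pcolce (1.08 ± 0.15), which enhances procollagen C-proteinase, the collagen chaperone Serpinh1 (0.58 ± 0.17) and the prolyl 3-hydroxylase P3h1 (0.57 ± 0.14). Of 8 further matrix genes, Col12a1, a fibril-associated collagen, rose by 1.24 ± 0.11, and Ecm1 (-0.63 ± 0.10) and Mfap4 (-0.56 ± 0.10) fell. Of 10 further proteases and inhibitors, 3 rose and 1 fell, and the protease inhibitor A2m, an acute phase protein of the rat, led with 5.23 ± 0.38. Of 10 genes of TGF-beta and PDGF signalling, the coreceptor Tgfbr3 fell by 0.62 ± 0.10 and the matricellular gene Ccn1 rose by 0.39 ± 0.10. Of 8 integrins and matrix receptors, Itgb1 rose (0.45 ± 0.12) and Sdc4 (-0.48 ± 0.09) and Itgb5 (-0.33 ± 0.10) fell.

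Markers of other cells were read beside these changes, against the same shares of all tested genes (15.3% rose and 12.8% fell). Of 12 further tested stellate and smooth muscle markers, 2 rose and 2 fell: Cygb, the globin of stellate cells, rose by 0.80 ± 0.16, and Colec11 (-0.87 ± 0.12) and Ecm1 fell. The other that rose was Hgf, the hepatocyte mitogen made by stellate cells (0.53 ± 0.11), named after its value had been seen. Of 8 sinusoidal endothelial markers 4 fell and none rose, and the list's median level was 6.69 to 7.07 at 0 h and 6.38 to 6.69 at 24 h. Of 15 macrophage markers 1 rose and 4 fell, with list medians of 7.42 to 8.08 and 7.60 to 8.24. Of 4 tested neutrophil and monocyte markers S100a8 (3.09 ± 0.37) and S100a9 (2.01 ± 0.32) rose, while that list's median level was 3.67 to 4.17 at 0 h and 3.96 to 4.64 at 24 h. Both tested lymphocyte markers fell, with list medians of 4.37 to 4.66 at 0 h and 4.19 to 4.31 at 24 h. None of the 11 hepatocyte, 3 cholangiocyte, 1 portal fibroblast or 1 erythroid markers tested passed. The part of cell makeup in the members' changes was not tested.

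The diet comparison asked what chronic ethanol changed, averaged over AM21 and time. No member passed in limma. Of all tested genes 0.46% did, 40 in number. At an unadjusted p under 0.05 there were 6 of the 27 members and 1335 of the 8690 tested genes. These 6 were Lox, Tgfb1, Sparc, Col6a2, Pdgfrb and Lrat. The median difference was 0.08 over the members and 0.02 over all tested genes. All 4 pairs of arrays that differ by diet went the same way in 7 of the 27 members, against 24% of all tested genes.

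Lox, lysyl oxidase, the enzyme that starts the cross-linking of collagen and elastin, had the largest diet difference among the members (probe set 17726248). At 0 h pair-fed liver had levels of 6.10 (untreated) and 6.92 (AM21), and ethanol-fed liver 3.56 and 3.70. At 24 h they were 5.50 (untreated) and 6.08 (AM21) in pair-fed liver, against 5.06 and 5.09 with ethanol. All 4 pair-fed arrays were above all 4 ethanol-fed arrays. Lox reached the level minimum through its pair-fed arrays (mean 6.15, against 4.35 with ethanol), and its ethanol-fed 0 h levels were under 5. Its differences are therefore values of uncertain size, and its tests are given as a description. The difference averaged over both times was -1.80 ± 0.41 (adjusted p = 0.107, 95% interval -2.75 to -0.85) and did not pass. With the 0 h arrays alone the difference was -2.88 ± 0.20 (adjusted p = 0.00225). With the 24 h arrays alone it was -0.72 ± 0.16 and did not pass (adjusted p = 0.198). On the means of each pool, which take the pool as the replicate, the adjusted p was 0.0151.

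**Figure D3:**
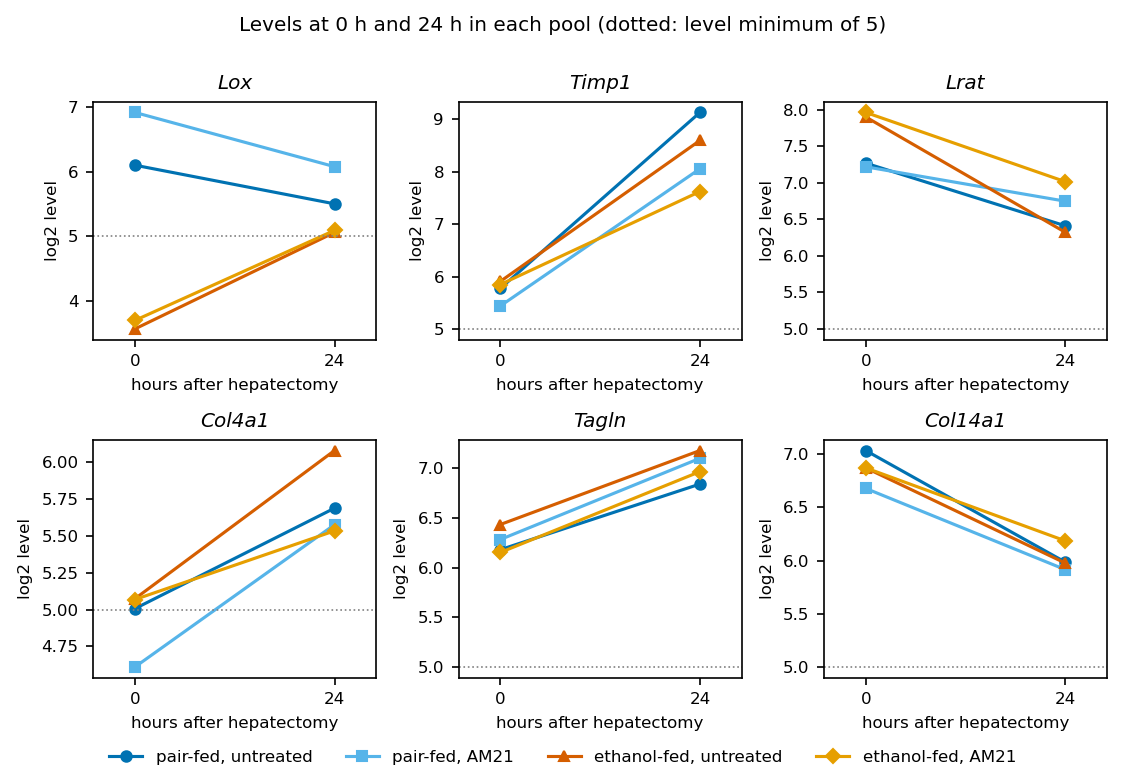
Log2 levels of Lox, Timp1, Lrat, Col4a1, Tagln and Col14a1 at 0 h and 24 h, with a line for each pool, blue for pair-fed and orange for ethanol-fed, and a dotted line at the level minimum of 5. The Lox lines of the diets converge from levels of 6.10 and 6.92 against 3.56 and 3.70, while each of the other genes moves in 1 direction in all 4 pools.

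The other members had small diet differences. Tgfb1 had pair-fed levels of 6.19, 6.18, 6.41 and 6.15 and ethanol-fed levels of 6.39, 6.59, 6.58 and 6.46 (0 h untreated and AM21, then 24 h), which overlap, with a difference of 0.27 ± 0.10 (adjusted p = 0.243). Sparc, a collagen-binding glycoprotein, differed by 0.24 ± 0.09, Col6a2 by 0.22 ± 0.09 and Pdgfrb by 0.29 ± 0.12. Lrat differed by 0.63 and 0.74 at 0 h and by -0.09 and 0.27 at 24 h. The fibrillar collagens differed by -0.09 to 0.17, with a 95% interval for Col1a1 of -0.15 to 0.28. Macrophage markers moved with diet on the same arrays. Of 15 tested, 3 were called higher with ethanol and none lower, where 0.46% of all tested genes were called either way. The 3 were Cd14 (1.24 ± 0.12), Marco (0.77 ± 0.10) and Cd5l (0.71 ± 0.09). The median level of the 15 was 7.42 to 7.75 in pair-fed and 7.89 to 8.24 in ethanol-fed liver. None of the 12 further stellate markers was called, with a median difference of 0.01. The part of macrophage content in the members' values was not tested.

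The AM21 comparison asked what blocking miR-21 changed, averaged over diet and time. No member passed, and the share of all tested genes that did was 0%. By limma at an unadjusted p under 0.05 there were 4 of the 27 members (Pdgfra, Timp1, Pdgfrb and Col4a1) and 538 of all tested genes. All 4 of these had lower values with AM21. All 4 AM21 pairs went the same way in 6 of the 27 members, against 15.6% of all tested genes. The median difference was -0.05 over the members and -0.03 over all tested genes.

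Timp1 levels with AM21 and without differed by -0.34 in pair-fed and -0.06 in ethanol-fed liver at 0 h, and by -1.08 and -0.98 at 24 h. Averaged, the difference was -0.61 ± 0.22 (adjusted p = 0.763, 95% interval -1.11 to -0.11). The AM21 arrays at 24 h (8.06 and 7.62) were both below the untreated arrays (9.13 and 8.60). Neutrophil and monocyte markers had lower values with AM21 too, though none of the 4 tested was called. Their median AM21 difference over both times was -0.56, and their median difference in the PHx response was -1.11. Median AM21 differences of the other marker lists went both ways, from -0.66 (1 portal fibroblast marker) to 0.28 (2 lymphocyte markers). The acute phase gene A2m, named after its values had been seen, differed by -1.37 ± 0.36 averaged over both times (adjusted p = 0.691). Its PHx response was larger with AM21, by 1.66 ± 0.25 (limma adjusted p = 0.181), where that of Timp1 was smaller. The part of these markers and of A2m in the Timp1 values was not tested. Pdgfra differed by -0.43, -0.38, -0.90 and -0.09 in the same order (fitted -0.45 ± 0.13, adjusted p = 0.722) and Pdgfrb by -0.17, -0.49, -0.46 and -0.06. Col4a1 differed by -0.40, -0.004, -0.11 and -0.55. For Col1a1 the interval was -0.32 to 0.11. Of the literature targets of miR-21 that hold back matrix proteases, which were singled out after their values had been seen, Timp3 differed by 0.33 ± 0.10 (adjusted p = 0.759) and Reck by -0.01 ± 0.11. None of the 12 further stellate markers was called, and their median difference was -0.12.

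**Figure D4:**
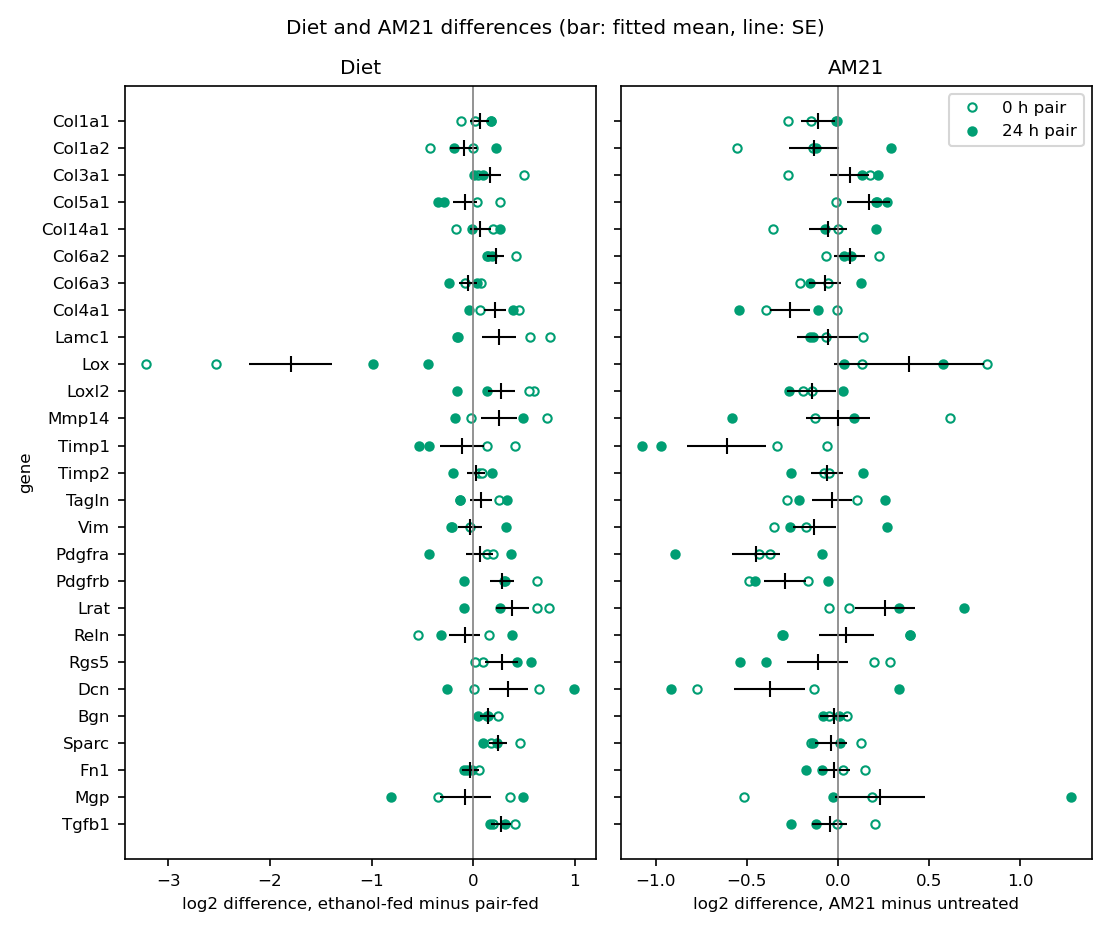
Log2 differences of ethanol-fed minus pair-fed (left) and AM21 minus untreated (right) arrays for the 27 tested genes, with open circles for the 0 h pairs, filled circles for the 24 h pairs, a bar at the fitted mean and a line for its SE. Lox stands apart on the left at a fitted -1.80, and Timp1 on the right has its 24 h pairs at -1.08 and -0.98.

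The last comparisons asked whether the response to PHx differed by diet or by AM21. With diet, 1 of the 27 members passed, where 0.529% of all tested genes did, and it was Lox. Its pair-fed pools changed by -0.60 (untreated) and -0.84 (AM21) and its ethanol-fed pools by 1.49 and 1.40, so that the diets moved in opposite directions and did not overlap. The difference between the responses was 2.16 ± 0.20 (adjusted p = 0.00809), with 1 residual degree of freedom before the spread is shared across genes. Lox reached the level minimum through its pair-fed arrays, so this test is a description. Its ethanol-fed pools start from 3.56 and 3.70, beneath the minimum, which leaves the size uncertain here too. The call was lost with no level minimum (adjusted p = 0.0740), after quantile normalization (0.0557), without a term for AM21 (0.0895) and with no pool block (0.130), while the difference stayed between 2.16 and 2.20. In the fit without a term for AM21, leaving out the ethanol-fed untreated or the ethanol-fed AM21 pool gave differences of 2.11 and 2.21 (adjusted p = 0.641 and 0.479). Each leaves 1 ethanol-fed pool, assumed to vary like the pair-fed pools, and says little of stability. Lox averaged over diets had a PHx difference of 0.36 ± 0.43, which describes neither diet.

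None of the other 26 members passed for diet. The next by p were Lamc1 (-0.81 ± 0.20, adjusted p = 0.158) and Timp1 (-0.76 ± 0.20, adjusted p = 0.183). Timp1 changed by 3.36 and 2.62 in pair-fed against 2.69 and 1.78 in ethanol-fed pools. Lrat changed by -0.86 and -0.47 against -1.58 and -0.95 (difference -0.60 ± 0.20, adjusted p = 0.303). With AM21 no member passed, and 0% of all tested genes did, with 4 members and 604 genes at an unadjusted p under 0.05. Timp1 was first of these members: it changed by 3.36 and 2.69 in the untreated pools and by 2.62 and 1.78 in the AM21 pools (difference -0.83 ± 0.20, adjusted p = 0.374). Rgs5 (-0.71 ± 0.20), Mgp (0.79 ± 0.22) and Lrat (0.51 ± 0.20) were the others.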

How the data were processed

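The members and gene lists were chosen with earlier results of these data known. The deposited values are log2 levels per probe set, made by the authors with RMA; the submitters' processing notes name Affymetrix Expression Console, and the sources used here give neither version nor genome build. RMA brings the arrays' distributions together, so a shift of most genes would not be seen. Of 36685 probe sets, 18511 carry 1 gene symbol in the platform table, 575 several and 17599 none. Genes were tested with limma 3.58.1 (R 4.3.3; lmFit, eBayes, Benjamini-Hochberg, threshold 0.05). PHx and its interactions used the pool as a fixed block, since both times of a pool carry the same animal identifiers in the labels. Diet and AM21 came from an additive fit over 8 arrays; the within-pool correlation of -0.371 was set to 0. All members with a probe set are named; other lists give up to 3 genes past the threshold with the largest change. The fits were also run on simulated arrays with independent noise and no pool effect. That run does not measure how many real changes of the members were missed. No p-value measures the spread between animals. For diet and AM21 the arrays of a pool count as independent, though they come from the same animals; the number of arrays limits the precision.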

Additional observations from a re-analysis of the deposited data

Results flagged for a closer look

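The response of Lox to PHx differed between the diets by a test of the difference (2.16 ± 0.20, adjusted p = 0.00809 by limma), with both pair-fed pools lower and both ethanol-fed pools higher at 24 h. Lox reached the level minimum through its pair-fed arrays, so this test is a description and the size is uncertain. The call was lost in 6 of 10 alternatives, and the ethanol-fed 0 h levels (3.56 and 3.70) are not shown to be above background. In 3 more members every pool of an arm moved one way and every pool of the other arm the opposite way, and their differences did not pass. The share of all tested genes with such a split was not counted, so these 3 are described only. Lamc1 had pair-fed changes of 0.87 and 0.58 and ethanol-fed changes of -0.05 and -0.12 (difference -0.81 ± 0.20, adjusted p = 0.158). Col5a1, by its brighter probe set, changed by 0.24 and 0.29 against -0.32 and -0.10 (difference -0.47 ± 0.20, adjusted p = 0.443). Its dimmer probe set (17760487) did not show this split. By that one, untreated pair-fed liver went from 4.80 to 4.78, while pair-fed liver given AM21 went from 4.72 to 4.77. All levels of the dimmer probe set were under 5 and are not shown to be above background. Tgfb1 changed by 0.22 and 0.19 in the untreated pools and by -0.03 and -0.13 in the AM21 pools (difference -0.29 ± 0.20, adjusted p = 0.833).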

How the results depend on the processing

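No call on a member changed direction under any alternative run. Of the 12 PHx calls, 7 (Timp1, Tagln, Vim, Col4a1, Col14a1, Lrat, Reln) passed in every alternative that tested them, and 5 lost the threshold in at least 1. Col4a1 reached the level minimum through its 24 h arrays, so its place among the 7 is a description. Fn1 lost the threshold in 8 alternatives, Mmp14 in 5, Pdgfrb and Loxl2 in 4 each and Col3a1 in 3. Besides leaving out a pool, all of these but Col3a1 lost it with no level filter. Mmp14 and Fn1 lost it with array medians centred too, and Fn1 after quantile normalization. The PHx count was 12 with no replicate block and ran from 7 to 9 when a pool was left out, and from 9 to 13 under the other alternatives. With a level minimum of 4, Col4a2 and Spp1 were called as well, and Fn1 was lost. For diet the count was 0, and 1 (Lox) on pool means (the replicate block), with all 2-way interactions and with the 0 h arrays alone; over all tested genes 40 calls became 102, 285 and 101. For the PHx response by diet the count was 1, and 0 with no level filter, after quantile normalization, with 1 interaction term and with no replicate block; leaving out a pool, an alternative added after the data had been seen, gave 0 to 1. The cause was not tested. The AM21 counts were 0 in each alternative run. Levels under 5 are not shown to be above background, which limits Lox, Col4a1, Loxl2, Dcn, Col5a1 and the 9 untested members.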

Other observations

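Some values set a pool or an array apart, without a test. Dcn, decorin, a collagen-binding proteoglycan, was at 4.93 and 4.77 in pair-fed AM21 liver at 0 h and 24 h, and between 5.43 and 5.76 on the other 6 arrays; levels under 5 are not shown to be above background. Reln differed by -0.31 and -0.30 between AM21 and untreated pair-fed liver (0 h and 24 h) and by 0.39 and 0.40 in ethanol-fed liver, the same at both times. Each of these pools is 1 set of animals, so a joint effect of diet and AM21 cannot be told apart from the animals. Mgp was lowest in ethanol-fed untreated liver at 24 h (7.75) and lay between 8.53 and 9.19 on the other arrays.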
